A study of Mus musculus with 7899 samples.

Results

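Pancreatic β cells of pregnant mice were compared with those of mice at gestation day 0 in the wild types that the study set beside its p300 knockouts. All cells labelled p300 WT in the deposited p300 count table were used: 280 of its 558 cells, out of 7897 single cells in the series. They fall into 4 libraries, each holding the reads summed over the cells of 1 replicate that the labels call biological. G14.5 p300 WT, named for its day of gestation, had 56 cells in replicate 2 and the larger part in replicate 1, and G0 p300 WT (gestation day 0) had 30 and 85. The other 278 cells are p300 KO, labelled p300 knockout, at G14.5 and G0. All mice are labelled female C57BL/6J on standard diet. The sources used here state neither the age nor the number of animals in a replicate, nor the alleles and any Cre driver behind the genotypes, nor whether G0 mice had been mated. Islets were picked by hand after collagenase perfusion and dispersed. Single cells were sorted into plates and sequenced with Smart-seq3xpress, a plate-based method that reads along the transcript. Further sets of the series were used beside p300 WT and p300 KO. The time course, which has no genotype label, was used at G0 and G14.5. The Acss2 and Stat3 sets each hold WT and KO cells at G0, at G14.5 and at a later stage. All their libraries entered the fits of those sets.

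In pregnancy the placenta and pituitary release lactogens, which bind the prolactin receptor on β cells and activate the kinase JAK2 and the factor STAT5. Mouse islets answer with serotonin synthesis, in which tryptophan hydroxylase, encoded by Tph1 and Tph2, takes the rate-limiting step, and with growth of the β-cell mass and more insulin secretion. p300, encoded by Ep300, is a histone acetyltransferase that works as a transcriptional coactivator.

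The libraries held 136856415 and 89359069 reads in G14.5 p300 WT, against 26462938 and 91555236 in G0 p300 WT, so that G0 replicate 1 is the shallowest. Replicates of a group correlated at Pearson's r of 0.981 to 0.989 across genes, and libraries of different groups at 0.967 to 0.985. No cell of the p300 table had over 5% of its reads in glucagon, somatostatin, Ppy and Pyy together, and no cells with identical counts were found in the 4 tables used. The insulin genes Ins1 and Ins2 took 56.5% and 54.4% of reads in G14.5 p300 WT and 58.2% and 64.04% in G0 p300 WT, which fits the β-cell label. Levels below are counts scaled to 1000000 reads per library after TMM normalisation (CPM), unless called plain CPM, which uses the library or cell total. Ep300 had 20.4 and 19.7 CPM in G14.5 p300 KO and 15.9 and 11.9 CPM in G0 p300 KO, against 27.5 and 37.2 CPM in G14.5 p300 WT and 24.2 and 36.7 CPM in G0 p300 WT. Every knockout library lay below every wild-type one, but edgeR's adjusted p for knockout against wild type was 0.369 at G14.5 and 0.0524 at G0, and the deleted exons are not stated.

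At G14.5, edgeR's quasi-likelihood test called 290 of the 13475 genes tested at a Benjamini-Hochberg adjusted p under 0.05: 169 were higher than at G0 (1.25%) and the others lower (0.898%). At least 2-fold changes were found for 120 of the higher and 88 of the lower genes. In 289 of the 290 the replicates of the stages did not overlap, as in 6157 of all genes tested. Leaving out G14.5 replicate 1 left 1.08% of genes called and leaving out G0 replicate 2 4.02%, against 2.15% with all libraries. With no scaling beyond the library total, which shifted the median gene by 0.195 on the log2 scale, 380 genes were called higher and 63 lower. Of called genes with at least 10 CPM on average, Sftpd, Tph1, Cldn8 and Dlx5 had the highest fold changes, and the hormones Pyy, Gcg, Ppy and Sst the lowest.

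Promoters of 3 genes are shown because each gene stands for a step described below: the serotonin enzyme, the lactogen receptor and a mitochondrial enzyme that rose. Each window runs from 250 bases before to 50 after a RefSeq start site (GRCm38.p6), 5′ to 3′ on the gene's strand. Capitals mark the STAT palindrome TTCNNNGAA, which was searched on both strands.
Tph1, first window (chr7:46667328-46667627, minus strand): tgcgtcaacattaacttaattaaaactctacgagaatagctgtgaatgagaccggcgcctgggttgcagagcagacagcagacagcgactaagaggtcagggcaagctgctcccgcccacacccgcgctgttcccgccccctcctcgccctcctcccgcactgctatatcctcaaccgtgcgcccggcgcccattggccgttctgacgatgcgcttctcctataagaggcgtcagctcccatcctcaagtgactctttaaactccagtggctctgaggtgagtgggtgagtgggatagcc
Tph1, second window (chr7:46672488-46672787, minus strand): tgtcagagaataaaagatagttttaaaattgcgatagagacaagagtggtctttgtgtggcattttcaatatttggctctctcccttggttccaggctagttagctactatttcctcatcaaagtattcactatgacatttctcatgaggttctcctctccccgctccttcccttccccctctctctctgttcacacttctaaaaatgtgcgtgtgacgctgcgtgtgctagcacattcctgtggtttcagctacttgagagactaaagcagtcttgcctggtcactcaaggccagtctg
Prlr, second window (chr15:10223656-10223955, plus strand): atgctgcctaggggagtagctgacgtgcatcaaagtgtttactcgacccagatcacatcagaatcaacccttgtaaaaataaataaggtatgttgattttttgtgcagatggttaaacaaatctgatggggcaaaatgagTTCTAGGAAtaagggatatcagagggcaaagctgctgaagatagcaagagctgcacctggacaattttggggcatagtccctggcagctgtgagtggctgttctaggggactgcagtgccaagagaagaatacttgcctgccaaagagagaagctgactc
Ivd (chr2:118861744-118862043, plus strand): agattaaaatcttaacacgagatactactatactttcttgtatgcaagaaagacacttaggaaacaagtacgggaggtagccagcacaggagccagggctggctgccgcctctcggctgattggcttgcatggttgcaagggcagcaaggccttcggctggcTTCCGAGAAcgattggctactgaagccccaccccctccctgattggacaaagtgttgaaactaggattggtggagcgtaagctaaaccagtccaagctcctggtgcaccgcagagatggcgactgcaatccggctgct
The match starts 110 bases before the start site in Prlr (position -110) and 88 before it in Ivd (position -88), and neither Tph1 window holds one. The Prlr window shown belongs to a start inside the gene and is the second of 3 in RefSeq; the other 2 Prlr windows hold no match and are not printed. A gene is counted below when any of its windows holds the motif. Of the genes called higher, 10.4% of those with such a window hold the motif (12 genes). Among genes called lower it was 9 of 90 (10%), and among all genes tested 840 of 10078 (8.34%). Of the 49 named genes with a window, 6 hold it: Ivd, Scn9a, Prlr and Nupr1, called higher, and Il1r2 and Cacna1c, called lower.

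Tph1 (ENSMUSG00000040046, GRCm38 chr7:46644641-46672537, minus strand), the tryptophan hydroxylase of tissues outside the brain, had the lowest p of all genes tested. It had 178 and 138.9 CPM in G14.5 p300 WT, against 0.559 and 0.705 CPM in G0 p300 WT, a log2 fold change of 7.92 (standard error of the fit, SE, 0.27, edgeR adjusted p 2.91e-08). The G0 values rest on 15 and 52 reads. Both G14.5 libraries lay far above both G0 libraries. Tph2 (chr10:115078641-115185022, minus strand), the hydroxylase of neurons, had 16.49 and 21.9 CPM in G14.5 p300 WT, against 1.75 and 2.75 CPM in G0 p300 WT (log2 fold change 3.07, SE 0.35, adjusted p 0.000791). Of the 16 serotonin genes listed, 12 passed the filter on low counts, and Tph1 and Tph2 were the 2 called. The list's median log2 fold change was 0.00, as was that of all genes tested. Ddc, which decarboxylates the product of the hydroxylases to serotonin, had 371 and 469 CPM in G14.5 p300 WT and 303 and 381 CPM in G0 p300 WT (adjusted p 0.396). The vesicular transporter Slc18a1 had 21.2 and 26.8 CPM at G14.5, against 13.03 and 20.5 CPM at G0 (adjusted p 0.451).

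Across single cells, Tph1 was spread widely. At least 1 read was found in 89.9% (exact 95% interval 82.7 to 94.9%) and 82.1% (69.6 to 91.1%) of cells in the G14.5 p300 WT libraries, which is 98 and 46 cells. In G0 p300 WT it was 2 of 30 (6.67%, 0.818 to 22.1%) and 16 of 85 (18.8%, 11.2 to 28.8%). The quartiles over cells ran from 42.04 to 254 and from 32.2 to 156.8 plain CPM at G14.5, and the 5 highest cells held 33.7% and 41.001% of the Tph1 reads. No cell at G0 went above 9.64 plain CPM. Thinned to 200000 reads per cell, 88.99% and 80.4% of cells kept a Tph1 read at G14.5, against 6.67% and 9.41% at G0.

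**Figure D1:**
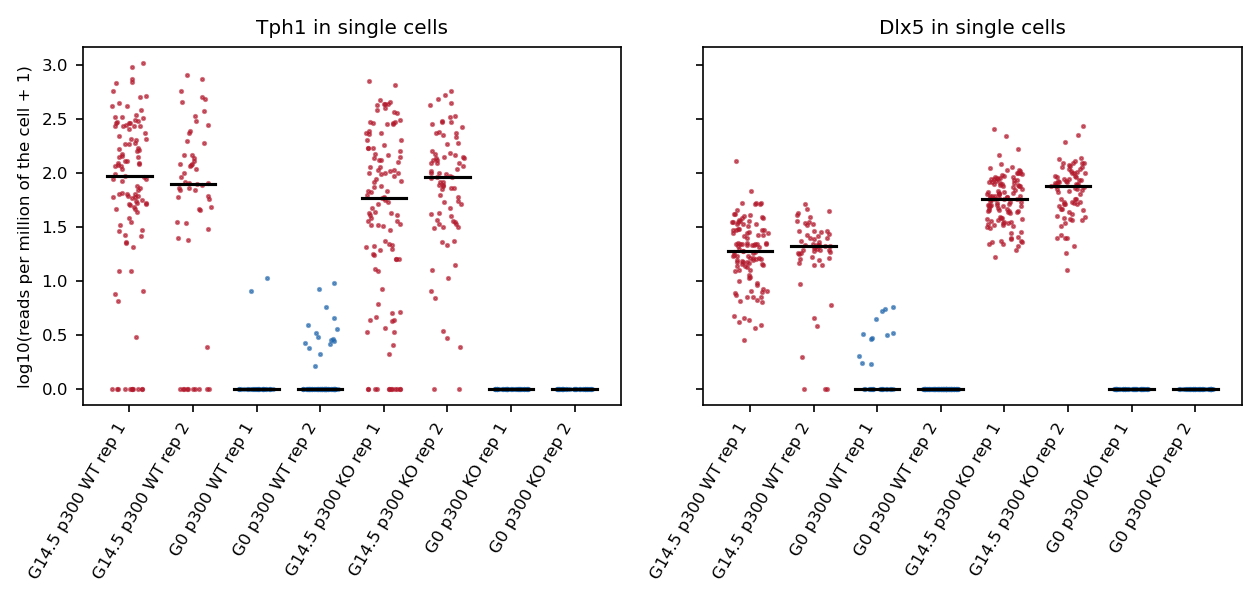
Plain CPM of each cell for Tph1 and Dlx5, on a log10(value + 1) axis, in the 8 libraries of the p300 table; each point is 1 cell and the black bar the median of the library. Tph1 covers a wide range in G14.5 cells, with 11 and 10 p300 WT cells of the G14.5 libraries at 0, while Dlx5 lies in a narrower band there and is at 0 in most G0 p300 WT cells.

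Dlx5 (ENSMUSG00000029755, chr6:6877805-6882085, minus strand), a homeobox transcription factor known from bone and forebrain, had 20.9 and 19.3 CPM in G14.5 p300 WT, against 0.856 and 0 CPM in G0 p300 WT (23 and 0 reads). The fitted log2 fold change was 6.10 (SE 0.86, adjusted p 0.00449), and DESeq2 did not call it (adjusted p 0.155). It was read in every cell of G14.5 replicate 1 and in 94.6% of those of replicate 2. Quartiles over these cells were 11.7 to 28.8 and 15.6 to 27.5 plain CPM. At G0, Dlx5 was read in 12 of 30 cells and in 0 of 85 (exact 95% interval for the latter 0 to 4.25%). The 5 highest cells held 14.6% and 16.4% of its reads at G14.5, less than for Tph1. After thinning to 200000 reads, 89.9% and 85.7% of cells kept a Dlx5 read at G14.5, against 16.7% and 0% at G0. Among G14.5 cells, 98 and 44 held both genes, 11 and 9 Dlx5 without Tph1, 0 and 2 Tph1 without Dlx5, and 0 and 1 neither. The other 5 Dlx genes listed, Dlx6 beside it on the chromosome included, did not pass the filter on low counts, with 18 reads of Dlx1, 2 of Dlx6 and 0 of the rest in the 8 libraries.

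Dlx5 was also high in G14.5 p300 KO, at 56.2 and 69.9 plain CPM against 0 reads in G0 p300 KO, at least 2849-fold higher (0 taken as 3 reads over the group). At G14.5 in the other sets compared here it was not: it had 0 reads in the 7 G14.5 libraries of the time course, Acss2 WT and Stat3 WT, which allows at most 0.0703 plain CPM in the shallowest of them. Their G0 libraries held 0 in the time course, 0.537 and 0.788 plain CPM in Acss2 WT, and 1.10 and 1.27 in Stat3 WT. Among knockouts of the other tables, G14.5 Stat3 KO held 4.22 and 0.956 plain CPM, and G14.5 Acss2 KO 0 reads. At the later stage G18.5, Acss2 WT held 4.40 and 5.93 plain CPM, and Stat3 WT 0 and 2.37. Wild types of other experiments in the series were not analysed here. The difference in response between p300 WT and Acss2 WT was called for Dlx5 (edgeR adjusted p 0.0268), 1 of 13 genes called there (0.0914%), and against the time course it could not be estimated, since all 5 of its libraries are at 0.

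Of the 20 islet genes listed for pregnancy, 18 passed the filter; 14 were called higher and 0 lower, with a median log2 fold change of 3.29 against 0.00 for all genes. The count of higher genes was 13 to 15 without any 1 of the wild-type libraries. The list was put together from genes already known to rise in pregnant islets, so its direction is not independent evidence. Sftpd (chr14:41172214-41185149, minus strand), surfactant protein D, had 49.8 and 62.04 CPM in G14.5 p300 WT, against 0 and 0.0271 CPM in G0 p300 WT. With 2 reads in all at G0, the ratio was 2758, with a counting interval of 763 to 22777 (edgeR adjusted p 2.19e-05). Cldn8 (chr16:88560828-88563183, minus strand), a claudin of tight junctions, had 212 and 169 CPM in G14.5 p300 WT, against 0.0745 and 2.18 CPM in G0 p300 WT (log2 fold change 7.15, SE 0.73, adjusted p 0.000302). It was read in 94.5% and 83.9% of cells at G14.5, and Sftpd in 55.96% and 62.5%.

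Fmo1 (chr1:162829561-162866610, minus strand), a flavin monooxygenase, had 862 and 692 CPM in G14.5 p300 WT, against 20.9 and 59.7 CPM in G0 p300 WT (log2 fold change 4.26, SE 0.38, adjusted p 0.000159). Chgb (chr2:132781278-132795079, plus strand), a granin of secretory granules, had 4644 and 3837 CPM in G14.5 p300 WT, against 668 and 582 CPM in G0 p300 WT (log2 fold change 2.76, SE 0.15, adjusted p 1.04e-06). Ivd (chr2:118861954-118882909, plus strand), the isovaleryl-CoA dehydrogenase of leucine breakdown, had 410.1 and 546 CPM in G14.5 p300 WT, against 55.5 and 83.3 CPM in G0 p300 WT (log2 fold change 2.78, SE 0.23, adjusted p 8.31e-05). In Chgb and Ivd, both G14.5 libraries lay above both G0 libraries. Per kilobase of the deposited gene length, mean levels at G14.5 were 1548 CPM for Chgb, 334 for Fmo1, 130.4 for Ivd, 80.7 for Cldn8, 77.7 for Tph1 and 14.1 for Dlx5.

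Of the other genes with high fold changes, Lrrc55 and Lrrc8c, both auxiliary or pore subunits of ion channels, had log2 fold changes of 5.70 and 3.502, and Crispld2, a secreted protein, one of 4.93. Crispld2 was not called by DESeq2 (adjusted p 0.185), and Lrrc8c not without G14.5 replicate 2 (adjusted p 0.0603). Gbp8, a guanylate-binding protein, changed by 4.88, Neb, the giant muscle protein nebulin, by 3.93, Tnfrsf11b, the decoy receptor osteoprotegerin, by 3.80, and Tmem255a, a membrane protein, by 3.39. Igfbp5, a binding protein of insulin-like growth factors, had 54.8 and 8.18 CPM at G14.5, against 12.1 and 0.786 CPM at G0; its stages overlapped and it was not called (adjusted p 0.282).

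**Figure D2:**
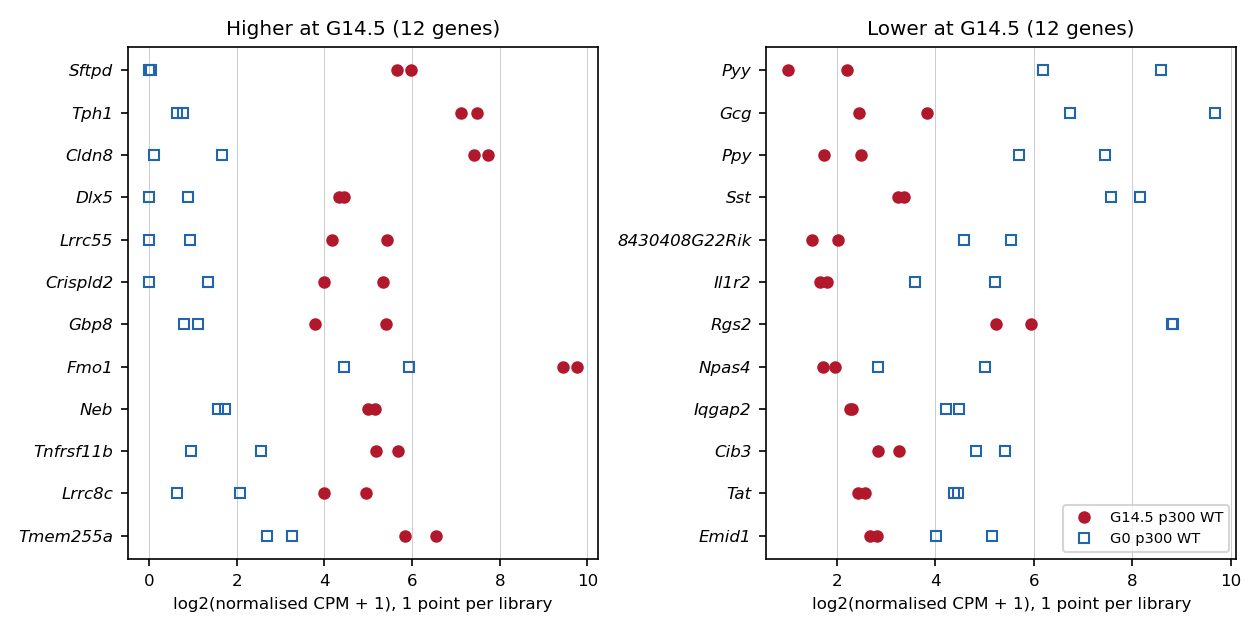
Levels of the named genes with extreme fold changes, 12 in each direction, as log2(normalised CPM + 1), where each point is 1 library; filled circles are G14.5 p300 WT and open squares G0 p300 WT. The genes were chosen among those whose stages do not overlap. Sftpd lies near 0 at G0, and Tph1 and Cldn8 are low there, with Cldn8 higher in replicate 2 than in replicate 1. Rgs2 is alike in both G0 libraries (445 and 453 CPM).

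Among receptors and signalling genes of the lactogen list, 2 of the 20 tested were called higher and 1 lower, with a median of -0.04. Prlr (ENSMUSG00000005268, chr15:10177238-10349180, plus strand), the prolactin receptor, had 1161 and 1310.3 CPM in G14.5 p300 WT, against 573 and 802 CPM in G0 p300 WT (log2 fold change 0.85, SE 0.17, adjusted p 0.0207). It was not called without G14.5 replicate 2 (adjusted p 0.0526) or in a fit on the 4 wild-type libraries alone (0.113). Socs2, a feedback inhibitor that cytokine receptors induce through STAT5, had 152.04 and 146.7 CPM at G14.5, against 75.4 and 57.5 CPM at G0 (log2 fold change 1.17, SE 0.20, adjusted p 0.00942). Stat5b, which encodes a STAT5 factor, had 18.2 and 19.3 CPM at G14.5, against 31.5 and 37.9 CPM at G0 (log2 fold change -0.89, SE 0.21, adjusted p 0.0429), and its call held under 5 of 17 alternatives. Cish, another STAT5-induced inhibitor, had 206 and 201 CPM at G14.5, against 120.8 and 58.4 CPM at G0, and just missed the threshold (log2 fold change 1.19, SE 0.29, adjusted p 0.0538).

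Genes of the secretory pathway that were called mostly changed by about 2-fold or less. Of 23 genes for entry into the endoplasmic reticulum, 5 were called higher and 0 lower (median log2 fold change 0.51), and of 26 for folding and the unfolded protein response 4 and 0 (median 0.33). Sec61b, a subunit of the translocation channel, had 763 and 633 CPM in G14.5 p300 WT, against 267 and 411 CPM in G0 p300 WT (log2 fold change 1.04, SE 0.20, adjusted p 0.0174). Sec11c, a catalytic subunit of the signal peptidase (0.91), and Ssr1 and Ssr4, subunits of the translocon-associated complex (0.81 and 0.86), were also called. Derl3, which retrotranslocates misfolded proteins, rose by 1.61, Edem1, which helps mark them for disposal, by 0.99, Dnajc3, a co-chaperone, by 0.86 and Manf, a secreted stress-induced protein, by 0.86 (log2). These 2 counts depended on single libraries: they were 0 and 2 without G14.5 replicate 1, 3 and 2 without G0 replicate 1, and 10 and 7 without G0 replicate 2. DESeq2 called 12 and 10 higher. In a fit on the wild-type libraries alone, Sec61b, Sec11c, Ssr1, Ssr4, Dnajc3 and Manf were not called, while Derl3 and Edem1 were.

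Granule cargo was split. Beside Chgb, Nucb2, the precursor of nesfatin, had 311 and 272 CPM in G14.5 p300 WT, against 136.5 and 154.6 CPM in G0 p300 WT (log2 fold change 1.001, SE 0.15, adjusted p 0.00581). Chga, another main granin, was lower, with 6116 and 6585 CPM at G14.5, against 9401 and 9791 CPM at G0 (log2 fold change -0.60, SE 0.12, adjusted p 0.0248), and the call ended under 6 of 17 alternatives, leaving out G14.5 replicate 1 among them. These were the 3 called of 15 in the list (median 0.02). Per kilobase, mean Chgb was 1548 CPM at G14.5 and 228 at G0, and mean Chga 3374 and 5099. The insulin genes were not called: Ins2 had 406580 and 342140 CPM at G14.5, against 433920 and 589420 CPM at G0 (log2 fold change -0.45, SE 0.13, adjusted p 0.102), and Ins1 had an adjusted p of 0.825. Reads may be split between these near-identical copies.

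Ucn3, a peptide of mature β cells, had 717 and 462 CPM at G14.5 and 969 and 601 CPM at G0 (adjusted p 0.385). Mafa, a β-cell transcription factor, had at most 3.13 CPM in the 4 libraries (adjusted p 0.578). Of genes for exocytosis and its channels, Scn9a, a sodium channel, was called higher (log2 fold change 1.25), and Cacna1c, the L-type calcium channel, lower (-1.25). Both lost the call without G14.5 replicate 1 and without G0 replicate 1.

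The cell cycle list had a median log2 fold change of 1.83 over its 29 members, against 0.00 for all genes. Its median was 0.81 in p300 KO, 0.21 in the time course, 0.91 in Acss2 WT and 0.906 in Stat3 WT. How many cells carry the list's median was not tested. Of the 29, 18 had an edgeR unadjusted p under 0.05, beside 2383 of all 13475 genes tested. With all libraries, 1 was called higher and 1 lower. DESeq2 called 8 higher and 2 lower. With 1 wild-type library left out, edgeR called 0 to 4 higher (most when G14.5 replicate 2 was out) and 0 to 2 lower. With G14.5 replicate 1 out it called none in either direction. Ccnd1, the cyclin of G1 entry, had 36.9 and 40.7 CPM in G14.5 p300 WT, against 22.2 and 21.5 CPM in G0 p300 WT (log2 fold change 0.83, SE 0.18, adjusted p 0.0325). Cdkn1b, the inhibitor p27, had 26.5 and 36.1 CPM at G14.5, against 53.5 and 65.4 CPM at G0 (log2 fold change -0.93, SE 0.21, adjusted p 0.0389). Leaving out any 1 of the 4 wild-type libraries ended the call of Ccnd1, as did limma and the fit on the wild-type libraries alone. Leaving out G14.5 replicate 1 or G0 replicate 2 ended that of Cdkn1b, as did limma, the fit on the wild-type libraries alone and no scaling. Mki67, a marker of dividing cells, had 12.4 and 10.3 CPM at G14.5, against 0.596 and 0.244 CPM at G0 and was not called (log2 fold change 4.85, SE 1.39, adjusted p 0.0913). It was read in 5 and 4 cells of the G14.5 libraries (4.59% and 7.14%) and in 1 of 30 and 4 of 85 at G0, and 1 cell held 58.5% and 46.6% of its reads in the G14.5 libraries.

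The metabolic and transport lists are set beside the 2.15% of all 13475 genes tested that edgeR called in p300 WT. Called were 2 of 22 genes for glycolysis and the TCA cycle, 2 of 25 for sterols and fatty acids, and 1 of 15 amino acid transporters. In lists this short, 0 calls cannot be told apart from the share over all genes. None of the 25 oxidative phosphorylation genes was called by edgeR (median 0.395) with all libraries, but 7 were called higher with G0 replicate 2 left out, and 2 when the library left out was G14.5 replicate 2. With all libraries there were 12 at an edgeR unadjusted p under 0.05, where 2383 of all 13475 genes tested were. DESeq2 called 4 of the list higher and limma 3. None of the 27 acetylation genes was called either (median -0.04), with 5 at an unadjusted p under 0.05, 1 called by DESeq2 and 0 by limma; without G0 replicate 2 edgeR called 2 higher and 1 lower. Acss2, which makes acetyl-CoA from acetate, had 35.9 and 40.6 CPM in G14.5 p300 WT, against 13.6 and 22.4 CPM in G0 p300 WT, and missed the threshold (log2 fold change 1.08, SE 0.27, adjusted p 0.0595). Of 17 interferon and MHC genes, edgeR called 0, with 2 at an unadjusted p under 0.05 and 1 called lower each by DESeq2 and limma. Gapdh and Pgam1, both glycolytic enzymes, were called higher (1.09 and 1.01) of 22 in their list, neither of them without G14.5 replicate 1 or G0 replicate 2.

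Lpl, lipoprotein lipase, was lower, with 30.97 and 38.7 CPM in G14.5 p300 WT, against 156.9 and 100.8 CPM in G0 p300 WT (log2 fold change -1.89, SE 0.25, adjusted p 0.00246). Srebf2, the regulator of sterol synthesis (-0.85), and Slc7a2, a carrier of cationic amino acids (-1.06), were called lower too, both not without G14.5 replicate 1. In the stress list Nupr1, a stress-induced chromatin protein, had 119.7 and 286 CPM at G14.5, against 55.7 and 55.3 CPM at G0 (log2 fold change 1.87, SE 0.42, adjusted p 0.0367), and was called neither without G14.5 replicate 2 nor without either G0 library. Ddit4, an inhibitor of mTORC1, went the other way, with 25.8 and 30.9 CPM at G14.5, against at least 87.5 CPM in both G0 libraries (log2 fold change -2.10, SE 0.29, adjusted p 0.00263).

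**Figure D3:**
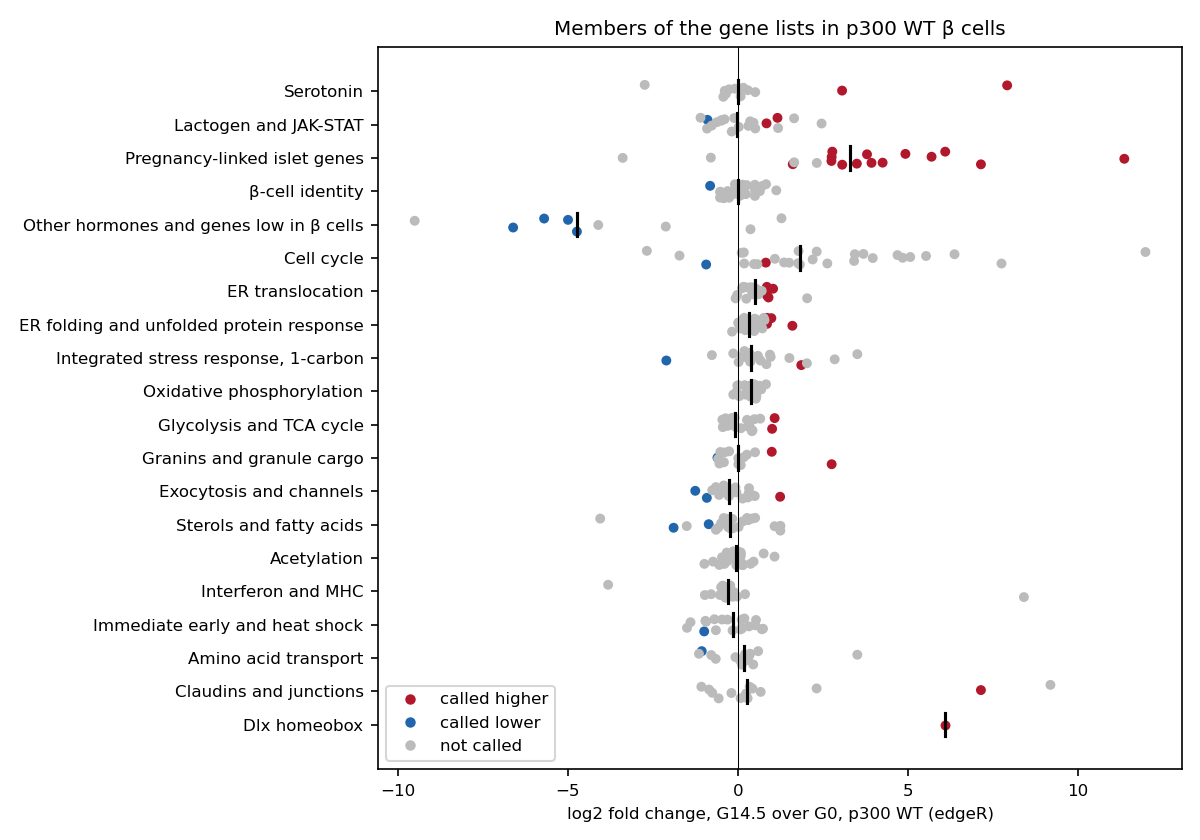
Log2 fold change of each tested member of the 20 pathway lists in p300 WT, G14.5 over G0, from the edgeR fit; each point is a gene, coloured by call, and black bars are list medians. Pregnancy-linked islet genes lie mostly to the right (median 3.29), the called hormones to the left, and cell cycle genes spread to the right with 1 called higher.

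The other islet hormones had the lowest fold changes of the called genes with at least 10 CPM on average. Gcg, glucagon of α cells, had 13.2 and 4.49 CPM in G14.5 p300 WT, against 105.1 and 815 CPM in G0 p300 WT (log2 fold change -5.69, SE 0.78, adjusted p 0.00263). Sst, somatostatin of δ cells, had 8.45 and 9.29 CPM at G14.5, against 187 and 283 CPM at G0 (log2 fold change -4.73, SE 0.52, adjusted p 0.000573). Ppy, pancreatic polypeptide, had 4.65 and 2.33 CPM at G14.5, against 50.6 and 172 CPM at G0 (log2 fold change -4.99, SE 0.50, adjusted p 0.000302). Pyy, peptide YY, had 3.59 and 1.00 CPM at G14.5, against 382 and 71.6 CPM at G0 (log2 fold change -6.60, SE 0.76, adjusted p 0.000899). These were the 4 called of the 9 tested genes in the list of genes low in β cells, with or without any 1 of the wild-type libraries.

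At G0 these hormone reads were present in nearly all cells. Sst, Ppy and Pyy were each read in 30 of 30 and 85 of 85 G0 cells, and Gcg in 24 of 30 and 85 of 85. In G0 replicate 2 the quartiles of Gcg over cells were 408 and 905 plain CPM. One cell of G0 replicate 1 held 84.6% of that library's Pyy reads. At G14.5, Gcg was read in 4.59% of cells in replicate 1 and in 14 of 56 in replicate 2, with 92.4% of the reads of replicate 1 in 1 cell, and Sst in 29.4% and in 28 of 56. Thinned to 200000 reads, Sst was left in 22.02% and 33.9% of cells at G14.5, against every cell of replicate 1 and 98.8% of replicate 2 at G0.

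Summed markers of other cell types, in plain CPM, moved with these hormones in part, but the α and δ lists hold Gcg and Sst themselves. The 9 α-cell markers summed to 561 and 779.5 at G14.5 against 1289 and 2697 at G0; 3 of the 8 tested were called lower, and Ttr, also made by β cells, carried most of the sum. The 6 δ-cell markers summed to 12.48 and 14.4 at G14.5 against 242 and 238 at G0. Most of that was Sst, with 8.43 and 9.95 at G14.5 against 190.04 and 227.7 at G0. The 22 hepatocyte markers summed to 22.3 and 22.9 at G14.5 against 87.6 and 80.2 at G0. Of these, Ahsg and Tat were the 2 called lower of 18 tested. The 13 acinar markers summed to 30.4 and 13.6 at G14.5 against 0.0378 and 9.39 at G0, the 7 ductal ones to 132.8 and 164 at G14.5 against 180.0 and 128.7 at G0, and the 7 endothelial ones to 3.06 and 4.51 at G14.5 against 3.59 and 4.08 at G0. Krt7 carried most of the ductal sum, with 104.61 and 138.9 at G14.5 against 140.65 and 114.47 at G0. The 9 immune markers summed to 82.96 and 73.2 at G14.5 against 57.7 and 38.96 at G0, nearly all of it C1qa, with Ptprc, C1qb and Cd3e at 0 reads in all 8 libraries. The 7 stromal markers summed to at most 0.567. In sums over cells, fewer cells with a transcript and less of it per cell cannot be told apart, and the part of other cells or of free RNA in these results was not tested.

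Rgs2 (chr1:143999338-144004161, minus strand), a regulator of G protein signalling, was lower, with 60.3 and 36.5 CPM in G14.5 p300 WT, against 445 and 453 CPM in G0 p300 WT (log2 fold change -3.21, SE 0.42, adjusted p 0.00228). It was read in every G0 cell and in 70.6% and 67.9% of G14.5 cells. Npas4, an activity-dependent transcription factor, had 2.31 and 2.90 CPM at G14.5, against 30.98 and 6.16 CPM at G0 (log2 fold change -2.82, SE 0.59, adjusted p 0.0265), and was not called without G0 replicate 1 or without either G14.5 library. Egr1, an immediate early gene, had 128.7 and 131.03 CPM at G14.5, against 288 and 226 CPM at G0 (log2 fold change -0.99, SE 0.17, adjusted p 0.0106). It was the 1 called of the 19 tested genes of the immediate early and heat shock list (median -0.15), a count that was 5 without G0 replicate 2.

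The remaining genes of the lowest 12 were 8430408G22Rik (-3.81), the decoy interleukin-1 receptor Il1r2 (-3.35), the scaffold protein Iqgap2 (-2.33), the calcium-binding Cib3 (-2.22), tyrosine aminotransferase, Tat (-2.12), and the matrix protein Emid1 (-2.11). Il1r2, Iqgap2, Tat and Emid1 were not called without G14.5 replicate 1. Il1r2 had 2.16 and 2.47 CPM at G14.5, against 10.98 and 35.9 CPM at G0, and Tat 4.94 and 4.43 CPM at G14.5, against 20.9 and 19.9 CPM at G0.

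**Figure D4:**
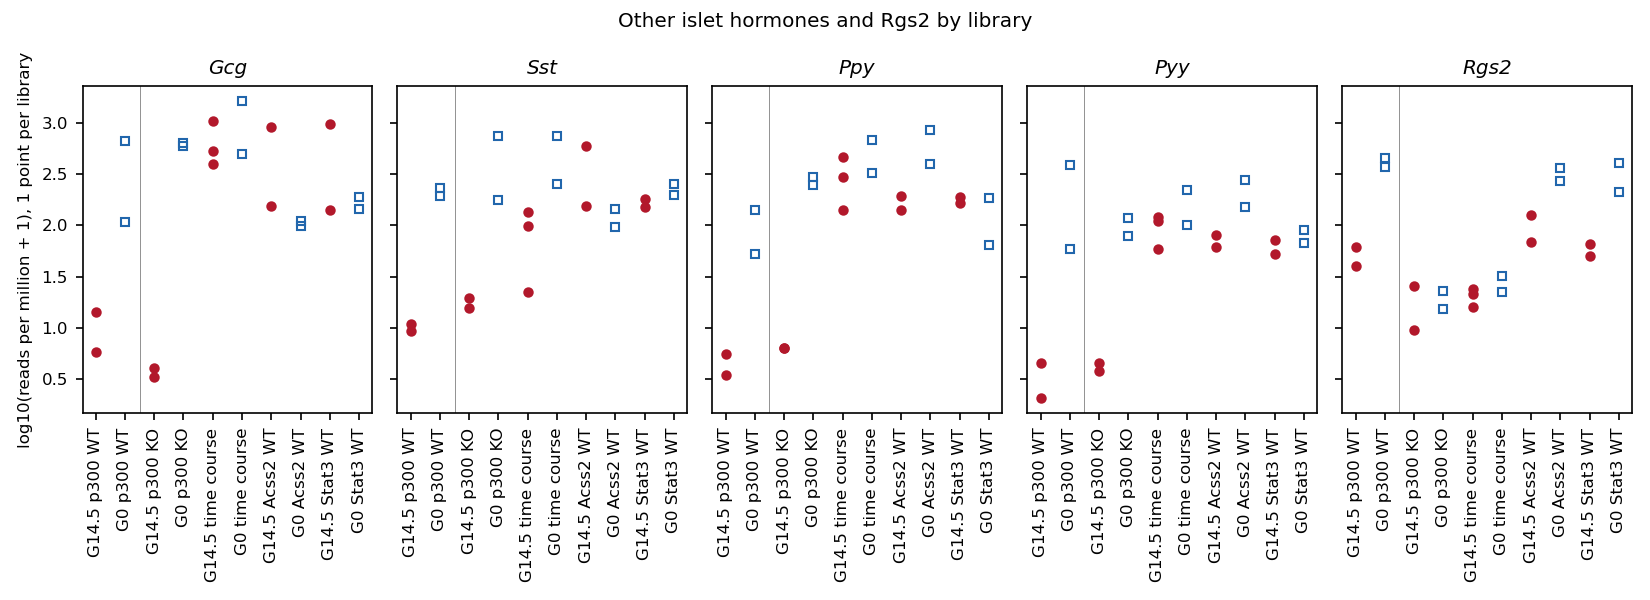
Plain CPM of Gcg, Sst, Ppy, Pyy and Rgs2 in each library, on a log10(value + 1) axis; filled circles are G14.5 and open squares G0, and the vertical line separates p300 WT from p300 KO, the time course, Acss2 WT and Stat3 WT. For the 4 hormones, the G14.5 libraries of p300 WT and p300 KO lie below all other libraries shown, and Rgs2 at G0 is high in p300 WT, Acss2 WT and Stat3 WT and low in p300 KO and the time course.

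The knockouts were sampled at the same stages. In p300 KO, 440 genes were called, 288 higher (2.14%) and the others lower (1.13%) at G14.5. Called higher in both genotypes were 91 genes, 53.8% of those in p300 WT and 31.6% of those in p300 KO. Called lower in both were 32, 26.4% and 21.1%. Tph1 had 126.6 and 138.5 CPM in G14.5 p300 KO and 0 reads in G0 p300 KO, at least 5946-fold higher. Prlr had 1318 and 1390.1 CPM in G14.5 p300 KO, against 429.8 and 434 CPM in G0 p300 KO (log2 fold change 1.65, adjusted p 0.000181). Gcg, Sst, Ppy and Pyy had log2 fold changes of -7.64, -4.61, -5.49 and -4.77 there, all called lower.

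The difference between the responses was itself called for 9 genes (0.0668%), 1 higher and 8 lower in p300 WT. Cited2, a coregulator that binds p300, had 66.9 and 62.04 CPM in G14.5 p300 WT and 87.1 and 69.5 CPM in G0 p300 WT, beside 60.2 and 63.9 CPM in G14.5 p300 KO and 17.9 and 18.004 CPM in G0 p300 KO (difference of log2 fold changes -2.07, SE 0.26, adjusted p 0.0109). Both G0 p300 KO libraries lay below all others. P2ry1, an ADP receptor, had 56.9 and 63.7 CPM in G14.5 p300 WT and 128.9 and 181 CPM in G0 p300 WT, beside 73.5 and 113.2 CPM in G14.5 p300 KO and 41.1 and 40.7 CPM in G0 p300 KO (difference -2.55, SE 0.32). P2ry1 was called lower in p300 WT and higher in p300 KO, as was Tagap, and these were the 2 genes called in opposite directions in the genotypes.

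Rec8, a meiotic cohesin, had 21.6 and 34.3 CPM in G14.5 p300 WT and 22.3 and 29.8 CPM in G0 p300 WT, beside 7.56 and 36.5 CPM in G14.5 p300 KO and 0.438 and 0.238 CPM in G0 p300 KO. Rsad2, the antiviral viperin, had 6.79 and 3.92 CPM in G14.5 p300 WT and 7.86 and 10.6 CPM in G0 p300 WT, beside 2.38 and 4.50 CPM in G14.5 p300 KO and 0.117 and 0.0595 CPM in G0 p300 KO. In p300 WT neither was called, and the difference had an adjusted p of 0.0228 for both. Tagap, a GTPase-activating protein, had 0.0220 and 0.115 CPM in G14.5 p300 WT against 3.61 and 7.29 CPM in G0 p300 WT, and 5.05 and 8.63 CPM in G14.5 p300 KO against 0.672 and 0.164 CPM in G0 p300 KO. For Tph1 the difference (adjusted p 0.00618) is against 0 reads in G0 p300 KO, while its G14.5 levels were 178 and 138.9 CPM in p300 WT and 126.6 and 138.5 CPM in p300 KO, and limma with each cell weighted equally did not call it (adjusted p 0.915). Without G0 p300 KO replicate 2 the count of called differences was 1.

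Other mice of the series without a knockout label give the same comparison in other libraries: the pregnancy time course (3 G14.5 and 2 G0 libraries, no genotype label), and Acss2 WT and Stat3 WT (2 and 2 each). Called higher and lower there were 406 (3.06%) and 211 (1.59%) genes in the time course, 283 (2.01%) and 0.903% in Acss2 WT, and 1.26% and 0.48% in Stat3 WT. Of the 406 genes higher in the time course, 96 (23.6%) were called higher in p300 WT, 57.1% of the 168 called here and tested there, and 387 had a positive fold change (median 0.81 against 0.00 for all genes). Of 210 lower ones, 32 (15.2%) were called lower in p300 WT, 26.7% of 120, and 194 were negative (median -0.69). With Acss2 WT, 88 higher genes were shared (31.3% of 281 there, 52.1% of 169 here) and 21 lower ones (16.54% and 17.4%). With Stat3 WT, 58 higher genes were shared (44.96% there, 48.7% here) and 20 lower ones (41.7% and 21.1%). None was called the opposite way in these 3 sets.

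Higher in all of p300 WT, time course, Acss2 WT and Stat3 WT were 45 genes, among them Tph1, Tph2, Sftpd, Chgb, Fmo1, Ivd, Neb, Gbp8, Crispld2, Prlr, Socs2 and Edem1. Lower in all 4 sets were 4: Cryba2, Gatsl2, Mdm1 and Pip5k1c. The Stat3 table holds 12792 gene rows against 21177 in the p300 table, so genes it does not list could not be counted. Of the pregnancy list, 15 of 18 tested genes were called higher in p300 KO, 15 of 17 in the time course, 14 of 18 in Acss2 WT and 10 of 14 in Stat3 WT.

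**Figure D5:**
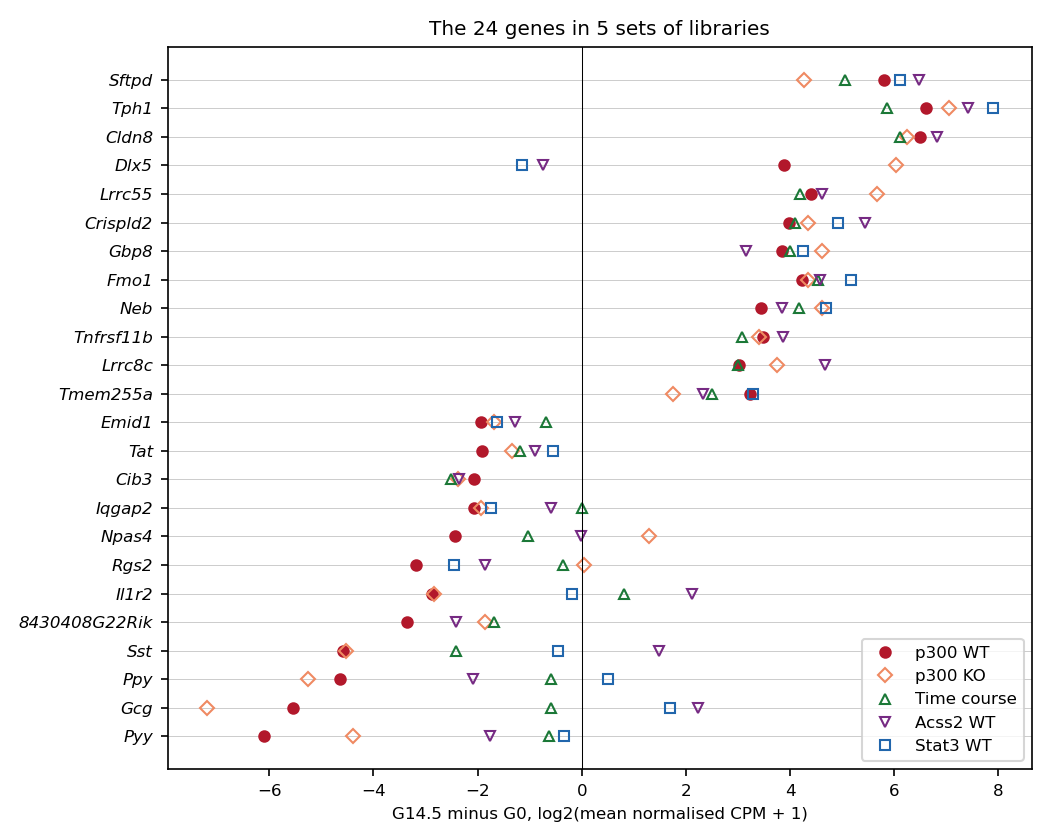
Difference between G14.5 and G0 of log2(mean normalised CPM + 1) for the 24 genes of extreme fold change in 5 sets of libraries; filled circles are p300 WT, and a missing mark means that the gene was not tested in that set. Of the genes that were higher in p300 WT, Dlx5 alone is negative in other sets (-0.74 in Acss2 WT and -1.15 in Stat3 WT), while Gcg, at -5.55 in p300 WT, is at -0.59 in the time course and 2.24 in Acss2 WT.

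A joint fit tested where the response of p300 WT differed from the mean of those in the time course and Acss2 WT, and called 18 of 14221 genes (0.127%), 3 higher and 15 lower. The 4 hormones were among the lower ones, with adjusted p of 0.00923 for Pyy, 0.0185 for Gcg, and 0.0411 for Sst and Ppy. Pyy had 120.7, 55.6 and 119.4 CPM at G14.5 in the time course against 208 and 98.7 CPM at G0, and 56.1 and 69.8 CPM at G14.5 in Acss2 WT against 142.9 and 289.7 CPM at G0 (difference -5.39, SE 0.79). Its G14.5 levels there were thus above those of G14.5 p300 WT.

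Rgs2 had 23.04, 19.9 and 16.51 CPM at G14.5 in the time course against 20.4 and 30.8 CPM at G0, and 62.3 and 110.5 CPM at G14.5 in Acss2 WT against 348 and 282 CPM at G0 (difference -2.10, SE 0.33, adjusted p 0.015). Against Acss2 WT alone the difference was not called (adjusted p 0.359). Tagap, Snrpf, a core protein of spliceosomal snRNPs, and Gm11273 also had lower responses than in those sets (-8.31, -3.74 and -3.02), with less than 10 CPM in every p300 WT library. Fxyd3, a regulator of the sodium pump, went the other way, with 5.34 and 10.52 CPM in G14.5 p300 WT, against 3.54 and 4.56 CPM in G0 p300 WT. In the time course and Acss2 WT it was lower at G14.5, with 2.35 and 1.12 CPM against 10.8 and 18.2 CPM at G0 in Acss2 WT (difference 3.39, SE 0.51, adjusted p 0.0104). Cish had a smaller response here (difference -2.24, adjusted p 0.0208), with 7.55 and 8.42 CPM at G0 in the time course, against which 120.8 and 58.4 CPM stood in G0 p300 WT. In plain CPM, Cish at G0 was 33.1 and 54.1 in Acss2 WT, and 122.6 and 47.02 in p300 WT. Stat3 WT, which was not in the joint fit, was close to p300 WT. It had 69.5 and 160.6 plain CPM at G0 and 299 and 226.8 at G14.5, where p300 WT had 206 and 215. Without G14.5 p300 WT replicate 2, the joint fit called 0 genes with edgeR (1220 at an unadjusted p under 0.05).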

How the data were processed

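Per the submitters' processing notes, the authors used Trimmomatic (0.39), featureCounts (2.0.1) and GRCm38 (mm10), and Cell Ranger (3.1.0) is also named; the sources used here state no aligner, annotation or strand setting. For every cell and gene, the deposited tables give a read count, the unit analysed here. A deposited normalized table was not used, since many of its cells hold no value. Of 21177 gene rows in the p300 table, 1 with missing values was left out. It holds no names of mitochondrially encoded or ribosomal protein genes.

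Counts were added up over the cells of a replicate; no doublet caller was run on the sorted cells. The 8 p300 libraries were normalised with TMM, filtered with filterByExpr and fitted as 4 groups with edgeR 4.0.16 (glmQLFit, glmQLFTest; R 4.3.3), with Benjamini-Hochberg adjustment over all genes tested and a call at 0.05. Levels were scaled to 1000000 reads per library. The other tables were fitted on their own, and p300 WT, time course and Acss2 WT also jointly. Alternatives were DESeq2 1.42.0, limma 3.58.1 on equally weighted cells with a pseudocount of 1, other scalings, no filter, left-out libraries and the replicate number as a block.

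Named genes are Tph1, Dlx5, Ep300, Acss2, Tph2, Prlr, Ins1, Ins2, Mki67, Mafa and Ucn3; the 12 highest and 12 lowest called genes of at least 10 CPM on average without overlap of the stages; up to 4 called members of each list; and up to 6 genes of each difference of responses. Cish, Ddc, Slc18a1, Igfbp5 and the genes called in all 4 sets were chosen after their values were seen, and so was the plotting of Rgs2 with the hormones. The members and lists were chosen with earlier results of these data known. Some called list members are not reported here. A fold against 0 reads is a lower bound, taken against 3 reads over the group. Replicates are labelled biological. With 2 a group, edgeR's p-values rest on the spread between replicates in all groups of a fit, moderated across genes. Those of p300 WT thus also draw on the p300 KO libraries, except in the fit on the wild-type libraries alone. Intervals for shares of cells (exact, 95%) and limits from counts of 0 cover counting error only. Gene positions are from GENCODE (GRCm38) and promoters from RefSeq.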

Additional observations from a re-analysis of the deposited data

Results flagged for a closer look

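The response to gestation differed between p300 WT and p300 KO, by the interaction term of the edgeR fit, in Tph1 (adjusted p 0.00618), Cited2 and P2ry1 (both 0.0109), Tagap (0.0164), and Rec8 and Rsad2 (both 0.0228). Without G0 p300 KO replicate 2 the edgeR adjusted p was 0.0508 for Tagap, 0.0527 for P2ry1, 0.057 for Cited2, 0.0586 for Rsad2 and 0.057 for Rec8; none of these was called.

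The response in p300 WT differed from the mean response of the time course and Acss2 WT, by the joint edgeR fit, in Pyy, Tagap and Snrpf (adjusted p 0.00923 each), Fxyd3 (0.0104), and Rgs2 and Gm11273 (0.015 each). Without G14.5 p300 WT replicate 2 the adjusted p was 0.0852 for Pyy, 0.0852 for Snrpf, 0.0852 for Fxyd3, 0.0601 for Tagap, 0.0876 for Rgs2 and 0.0876 for Gm11273.

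Dlx5 also had reads, above the limit that a count of 0 allows, in libraries of groups that were not compared here. These libraries did enter the fits of the Acss2 and Stat3 tables. It had 29.5 plain CPM in G18.5 Acss2 KO replicate 1, against 0 in replicate 2 of that group and 4.40 and 5.93 in the G18.5 Acss2 WT libraries. G18.5 Stat3 WT had 2.37 in replicate 2 and 0 in replicate 1. G14.5 Stat3 KO had 4.22 and 0.956, where G14.5 Stat3 WT had 0. G0 Stat3 KO had 0 and 1.87, and G0 Acss2 KO 1.13 and 0.857.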

How the results depend on the processing

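Of the 57 named genes called in p300 WT, 55 kept the call with DESeq2, 57 without the filter, 46 with limma on equally weighted cells, 48 without scaling and 39 in a fit on the 4 wild-type libraries. Leaving out a library of p300 WT kept 32 (G14.5 replicate 1), 46 (G14.5 replicate 2), 43 (G0 replicate 1) and 49 (G0 replicate 2) calls. No called gene of these turned its direction under any alternative run. Of genes not called, Ins1 ran from -0.34 to 0.22 on the log2 scale with 1 library left out, and was 0.17 with limma and 0.13 without scaling. Ep300 ran from -0.18 to 0.41 (-0.18 without G0 replicate 1 and -0.15 with G14.5 replicate 2 left out). Rec8 ran from -0.27 to 0.38 (-0.09 and -0.27 in those) and was -0.42 with limma.

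Called in p300 WT were 2.15% of the genes tested. The share was 7.53% with DESeq2 (1014 genes), 6.11% with no filter (1001), 1.42% in the fit on wild-type libraries (183), 3.29% without scaling (443) and 1.08 to 4.02% with 1 library left out. In p300 KO, 3.27% became 7.61%, 6.17% and 1.20 to 5.24% (DESeq2, no filter, 1 library left out). The difference between genotypes, 0.0668%, became 1.34%, 1.496% and 0.00705 to 0.388%. The difference from the other sets, 0.127%, was 0.0703% against the time course alone and 0 to 0.329% with 1 p300 WT library left out. With no filter the time course had 7.30% called, Acss2 WT 5.09% and Stat3 WT 4.37%. The causes were not tested.

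The replicate numbers do not pair the libraries: correlations between groups of replicate 1 minus replicate 2 ran from -0.12 to 0.043. With the number as a block, 2.04% of genes were called in p300 WT (275), 3.03% in p300 KO and 0.0816% for their difference.

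Thinned to 200000 reads per cell, cells with a Tph1 read fell to 9.41% in G0 p300 WT replicate 2, and cells with a Dlx5 read to 89.9% in G14.5 p300 WT replicate 1 and 16.7% in G0 p300 WT replicate 1. G0 replicate 1 rests on 30 cells. No cell passed the 5% limit for other hormones, so leaving such cells out changed nothing.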
